A study of Homo sapiens with 6 samples.

Results

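The 2 human lymphoma cell lines of the study, Jeko and Rec-1, both derive from mantle cell lymphoma, a B-cell cancer in which a translocation usually places the cyclin D1 gene under immunoglobulin control. Here the libraries labelled Rec-1 sgRNA were compared with the libraries labelled Jeko sgRNA, 2 against 2, or 4 of the 6 libraries of the study; no control library entered the comparison. Members were the autosomal gene rows with a mean of at least 1 FPKM (fragments scaled by transcript length and by the mapped fragments of the library) over the 4 libraries. There were 10678 such genes, among 11369 rows above that level and 25277 rows in all. Of the 10678 genes, 10024 were annotated as protein-coding.

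All 4 libraries came from stable lines that carried Cas9 and a tet-on vector, in which doxycycline induces a single guide RNA (sgRNA) against the nuclear receptor gene NR4A1. Each line was given guide 1 in one culture and guide 2 in another, induction lasted 48 h, and total RNA was sequenced. Both groups therefore share Cas9, doxycycline and the targeting of NR4A1. The samples of a group were different guide lines, so that the p-values measure only the spread between these libraries.

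Cyclin D1, D2 and D3 bind CDK4 or CDK6 and start the cell cycle by phosphorylating RB, which frees E2F factors to switch on S-phase genes. In B cells, the antigen receptor signals through SRC-family kinases and SYK to PI3K delta and, over BCL10 and MALT1, to NF-κB. Mantle cell lymphoma is known for cyclin D1 and SOX11, and germinal-centre B cells for BCL6 and MME (CD10).

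Levels are given with library 1 of a group first. A gene passed the test where limma's moderated test on log2(FPKM + 1), adjusted over all 11369 rows by the Benjamini-Hochberg method, gave p under 0.05. Differences are on that log2 scale, Rec-1-labelled minus Jeko, with the standard error (SE), and for weakly expressed genes they are smaller than the true fold change. No exact permutation test of 2 against 2 libraries can give a p below 0.333.

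The labels were checked first. NR4A1 (chr12:52416616-52453291, GRCh37, plus strand) stood at 3.89 and 4.44 FPKM in the Jeko libraries and at 27.4 and 12.7 FPKM in the libraries labelled Rec-1 sgRNA, which is 1.94 higher on the log2 scale (SE 0.38, limma adjusted p = 0.0232). It stood at 5.99 FPKM in the Jeko control and 11.6 FPKM in the Rec-1 control. Neither library labelled Rec-1 sgRNA had less NR4A1 RNA than the Rec-1 control. As background, a cut that disrupts the reading frame need not lower the RNA.

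The pan-B-cell genes were present on both sides. PAX5, the B-cell commitment factor, was at 18.1 and 15.1 FPKM in Jeko and 18.9 and 26.1 FPKM in the Rec-1-labelled libraries. CD79A, a signalling chain of the B-cell receptor, was at 265 and 378 against 520 and 596 FPKM. Its partner CD79B stood at 151 and 258 against 309 and 296 FPKM, CD22 at 12.8 and 8.95 against 19.3 and 26.6 FPKM, and MS4A1 (CD20) at 132 and 67.8 against 26.4 and 68.5 FPKM. None of these 5 genes passed the test, and the values of MS4A1 overlapped.

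Of the 3 markers of mantle cell lymphoma, CCND1 was close to 0 in the Rec-1-labelled libraries, SOX11 was lower there but present, and CD5 was close to 0 on both sides. CCND1, the cyclin D1 gene (chr11:69455924-69469242, GRCh37, plus strand), was at 815 and 442 FPKM in the Jeko libraries and at 0.696 and 0.592 FPKM in the Rec-1-labelled libraries. Its mean was 976 times higher in Jeko. SOX11 (chr2:5832516-5841517, plus strand), a neural transcription factor expressed in most mantle cell lymphomas, was at 11.1 and 10.2 against 3.60 and 2.45 FPKM, a difference of -1.55 (SE 0.22, adjusted p = 0.00903). CD5, the third marker, did not exceed 0.0642 FPKM in any of the 4 libraries. The Rec-1 control, which was not part of the comparison, held 495 FPKM of CCND1 and 10.8 FPKM of SOX11.

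Across the 10678 genes the Rec-1 control resembled the Jeko control, with a Pearson correlation of log2 values of 0.967, more than it resembled the libraries labelled Rec-1 sgRNA, with 0.776 and 0.781. At 2668 of the 3039 genes that passed the test, or 87.8%, the Rec-1 control lay nearer the mean of the Jeko sgRNA libraries. Both correlations were computed over genes, and genes are no independent replicates. The libraries labelled Rec-1 sgRNA thus go against the control of their own line, and their group is called Rec-1-labelled throughout. Whether they differ from Jeko through cell line, sgRNA or sample identity cannot be told apart here, and neither can fewer cells of a kind from less RNA per cell.

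Within the groups the libraries were alike, with r = 0.949 for the Jeko pair and 0.938 for the Rec-1-labelled pair, and between 3.72% and 4.42% of genes were 2-fold apart on the log2(FPKM + 1) scale. Between the groups r ranged from 0.778 to 0.795, and 24.9% to 30.5% of genes were 2-fold apart. FPKM summed to between 905778 and 1160110 per library. The number of fragments is not given, but the spacing of low values put the depth of Jeko sgRNA 2 at 1.26 times and that of Rec-1-labelled sgRNA 2 at 0.787 times the depth of Jeko sgRNA 1. No such spacing was found in Rec-1-labelled sgRNA 1, where 3 of 505 low genes shared the commonest ratio. That library stood apart in this respect, and counts without it are given beside each list.

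Of the 10678 genes, 3039 (28.5%) passed the test. Higher in the Rec-1-labelled libraries were 1550 genes (14.5%), and 1489 genes (13.9%) were lower. An unadjusted p under 0.05 was reached by 4590 genes, and at 70.5% of the genes the 2 groups did not overlap. The median difference over all genes was -0.03.

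Among genes that passed, 2407 differed by at least 1 on the log2 scale. Leaving out a library left 1 residual degree of freedom and assumed that the lone library of its group varied like the other pair. The counts, higher and lower, were then 531 and 535 without Jeko sgRNA 1, 641 and 597 without Jeko sgRNA 2, 608 and 306 without Rec-1-labelled sgRNA 1, and 672 and 366 without Rec-1-labelled sgRNA 2. There were 651 genes that passed in all 4 of these fits, and no gene that passed with all libraries changed its direction in any of these 4. Of the 137 genes named here that passed, 84 lost the call in at least 1 of these fits.

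Of the 6 markers that define the comparison, CCND1 and CCND3 passed in each fit that left out a library. CDKN2A lost the call without Jeko sgRNA 1 (adjusted p = 0.0533), and PIK3CD without either Rec-1-labelled library (adjusted p = 0.0549 and 0.0558). SOX11 and MALT1 passed in none of the 4, with adjusted p between 0.0564 and 0.0925. NR4A1 passed only without Rec-1-labelled sgRNA 2 (adjusted p = 0.0336). The differences kept their direction in all of these fits, from -1.75 to -1.34 for SOX11 and from -2.43 to -1.95 for MALT1.

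**Figure D1:**
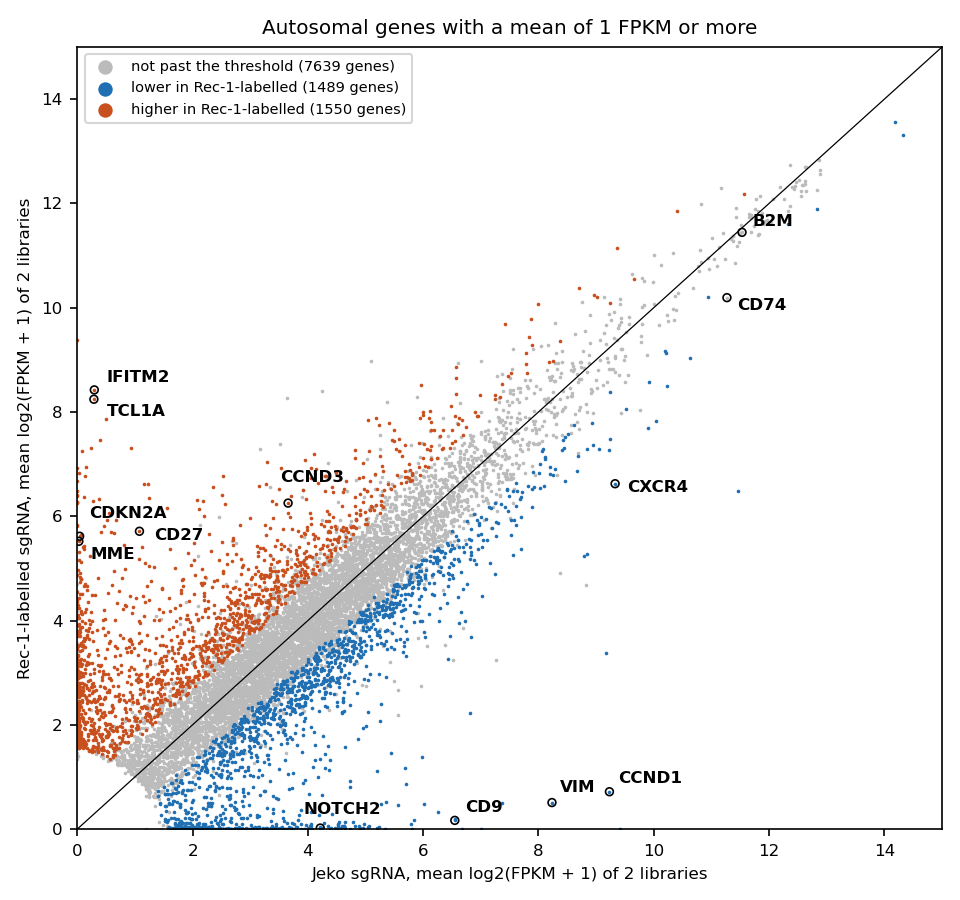
Mean log2(FPKM + 1) of the 2 Jeko sgRNA libraries (x axis) against that of the 2 Rec-1-labelled sgRNA libraries (y axis) for the 10678 autosomal genes; each point is a gene, the line marks equality, and circles mark the genes written beside them. CCND1, VIM and CD9 lie near the lower edge and TCL1A, IFITM2, MME and CDKN2A near the left edge, each close to 0 in one group.

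The largest differences among protein-coding genes whose groups did not overlap were close to all or none. On the high side, IFITM2, an interferon-induced membrane protein, was at 0.505 and 0 FPKM in Jeko and 344 and 340 FPKM in the Rec-1-labelled libraries. TCL1A, a co-activator of AKT expressed in B cells up to the germinal centre, was at 0.448 and 0.0295 against 352 and 259 FPKM. FCER1G, the common gamma chain of Fc receptors, was at 0.573 and 0.272 against 207 and 257 FPKM. The differences of these 3 genes were 8.13 (SE 0.26), 7.96 (SE 0.28) and 7.36 (SE 0.23), each with adjusted p = 0.000474.

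The next 7 genes on that side were GYPC (glycophorin C), PTPRCAP (a partner of CD45), GPX1 (a glutathione peroxidase), S100A10, UCHL1 (a ubiquitin hydrolase), TPM2 (a tropomyosin) and CST7 (cystatin F). Their differences ran from 7.16 for GYPC down to 6.4 for CST7, and none of the 7 exceeded 0.380 FPKM in a Jeko library. GPX1 was the one that the controls did not share with the Jeko sgRNA libraries, at 14.4 FPKM in the Jeko control and 24.4 FPKM in the Rec-1 control.

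On the low side CCND1 came first, with a difference of -8.51 (SE 0.34, adjusted p = 0.000474). VIM, the intermediate filament vimentin, was at 341 and 264 FPKM in Jeko and 0.723 and 0.175 FPKM in the Rec-1-labelled libraries. SFRP5, a secreted WNT antagonist, was at 153 and 176 against 0.506 and 0.335 FPKM. EIF4EBP1, the translation repressor that mTOR phosphorylates, was at 75.4 and 135 FPKM in Jeko and was listed at 0 in both Rec-1-labelled libraries. The other 6 were CD9, APP (the amyloid precursor protein), TUBB6 (a beta-tubulin), IGFBP4, NPTX1 and PARVB (parvin beta), with differences from -6.38 for CD9 to -5.53 for PARVB. All 20 genes passed in each of the 4 fits that left out a library.

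B-cell identity was followed in 91 listed genes. Of these, 76 were tested, 26 were higher and 18 lower in the Rec-1-labelled libraries, 32 did not pass, 14 were under 1 FPKM on average and 1 had no match in the annotation. The share that passed was 57.9%, beside 28.5% of all genes, and the median difference was 0.24, beside -0.03. A gene can enter the tested set through the group in which it is high, so the shares describe the lists and test nothing. Higher and lower counts were 16 and 9 without Jeko sgRNA 1, 16 and 8 without Jeko sgRNA 2, 12 and 3 without Rec-1-labelled sgRNA 1, and 15 and 6 without Rec-1-labelled sgRNA 2.

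Among transcription factors, 34 were tested, 11 were higher and 9 lower, a share of 58.8% beside 28.5% of all genes. BCL6, the repressor that maintains germinal-centre B cells, was at 0.535 and 0.486 FPKM in Jeko and 18.1 and 33.8 FPKM in the Rec-1-labelled libraries, higher by 4.09 (SE 0.32, adjusted p = 0.00181). MEF2C, a factor of B-cell receptor-driven growth, was at 0.742 and 0.212 against 20.3 and 24.1 FPKM, higher by 3.99 (SE 0.25, adjusted p = 0.000993). Both genes had both Rec-1-labelled libraries above both Jeko libraries, and at 70.5% of all genes the groups did not overlap. BCL6 and MEF2C passed in each fit that left out a library. IRF8, an interferon regulatory factor of B and myeloid cells, was at 5.23 and 15.4 against 55.2 and 51.8 FPKM.

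IRF4 and PRDM1, factors of the plasma-cell path, were lower, whereas XBP1 did not pass. IRF4, which drives plasma-cell differentiation, was at 71.1 and 103 FPKM in Jeko and 28.2 and 25.1 FPKM in the Rec-1-labelled libraries, a difference of -1.65 (SE 0.26, adjusted p = 0.0125). PRDM1, which encodes BLIMP1, was at 5.70 and 4.52 against 1.38 and 0.953 FPKM, and the plasma-cell proteoglycan SDC1 (CD138) at 23.7 and 16.7 against 1.22 and 1.86 FPKM. TNFRSF17, the receptor BCMA, was at 79.8 and 103 against 26.6 and 28.1 FPKM. Of 8 plasma-cell markers these 4 were lower and the others did not pass, a share of 50.0% beside 28.5% of all genes. All 4 lost the call without Rec-1-labelled sgRNA 1. KLF2, a quiescence and trafficking factor, was at 23.7 and 9.78 against 0.701 and 0.506 FPKM, a difference of -3.35 (SE 0.42, adjusted p = 0.00652), and SOX4 was at 36.1 and 13.1 against 5.22 and 3.68 FPKM.

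Of 25 surface and receptor proteins tested, 9 were higher and 3 lower, a share of 48.0% beside 28.5% of all genes. The largest difference was that of TCL1A, an intracellular protein listed with them. MME, the peptidase CD10, was at 0.0573 and 0 FPKM in Jeko and 57.2 and 40.3 FPKM in the Rec-1-labelled libraries, higher by 5.58 (SE 0.23, adjusted p = 0.000474). CD27, a TNF-receptor family member of memory B cells and T cells, was at 1.03 and 1.19 against 55.4 and 47.7 FPKM, higher by 4.63 (SE 0.19, adjusted p = 0.000474). The tetraspanin CD37 was at 2.78 and 7.66 against 104 and 67.3 FPKM, and the inhibitory co-receptor CD72 at 8.14 and 13.5 against 123 and 119 FPKM. Another tetraspanin, CD9, went the other way, from 77.3 and 111 FPKM in Jeko to 0.0942 and 0.152 FPKM, a difference of -6.38 (SE 0.24, adjusted p = 0.000474). TCL1A, MME, CD27 and CD9 passed in each fit that left out a library, and CD37 and CD72 did not.

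Receptors that place B cells in lymphoid tissue split evenly, with 6 higher and 6 lower of 17 tested. The share that passed was 70.6%, beside 28.5% of all genes. CCR7, the chemokine receptor of entry into lymph nodes, was at 67.5 and 37.4 FPKM in Jeko and 1.18 and 1.31 FPKM in the Rec-1-labelled libraries, a difference of -4.52 (SE 0.32, adjusted p = 0.00135). S1PR1, which guides exit from them, was at 11.9 and 7.22 against 0.0177 and 0 FPKM, a difference of -3.35 (SE 0.27, adjusted p = 0.00185). CXCR4, the receptor of CXCL12, had a difference of -2.71 (SE 0.20, adjusted p = 0.00145), at 620 and 665 against 93.6 and 102 FPKM, and was picked for naming after its values were seen.

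ITGAL and ITGB2, which together form the integrin LFA-1, were both higher. ITGAL was at 0.271 and 0.918 FPKM in Jeko and 28.0 and 32.0 FPKM in the Rec-1-labelled libraries, and ITGB2 at 0.572 and 1.77 against 39.0 and 32.0 FPKM. RGS13, a germinal-centre regulator of G-protein signalling, was listed at 0 in both Jeko libraries and at 17.8 FPKM in each Rec-1-labelled library. S1PR4 was at 1.69 and 1.84 against 38.9 and 14.3 FPKM. The differences of these 4 genes lay between 3.16 for S1PR4 and 4.31 for ITGAL. CCR7, CXCR4, ITGAL and RGS13 passed in each fit that left out a library, whereas S1PR1, ITGB2 and S1PR4 did not.

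**Figure D2:**
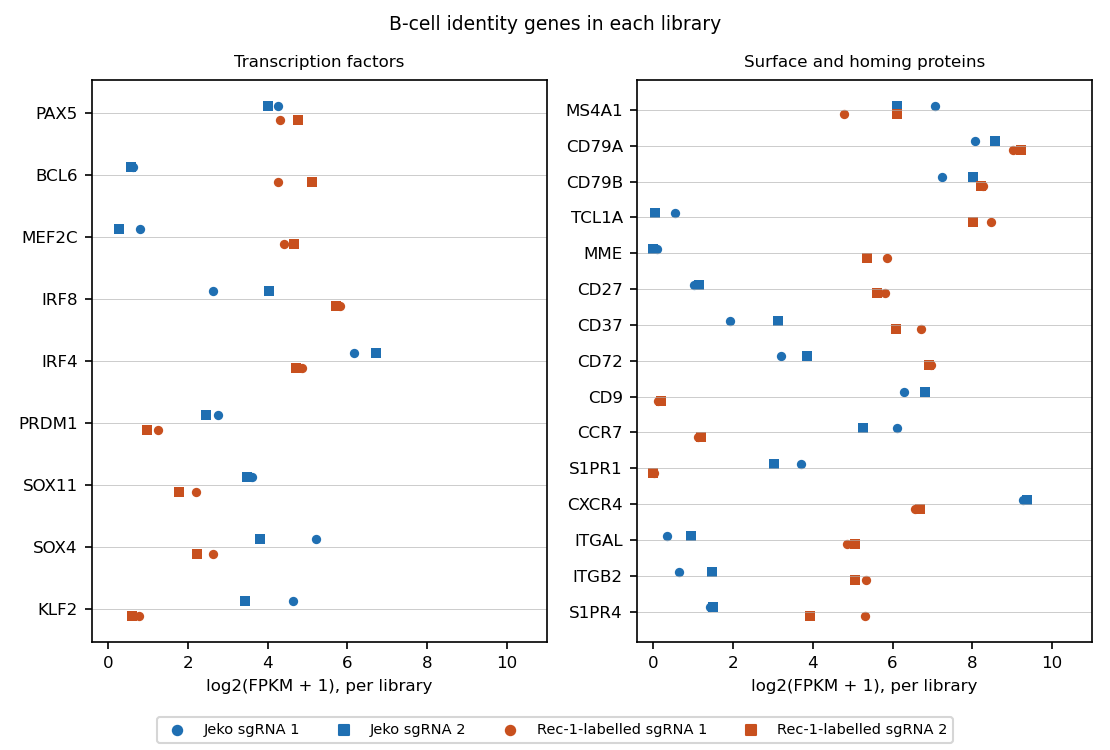
log2(FPKM + 1) of B-cell identity genes in each library; blue marks Jeko sgRNA, orange Rec-1-labelled sgRNA, circles library 1 and squares library 2. PAX5, CD79A and CD79B sit close together, whereas BCL6, MEF2C, MME and TCL1A are near 0 in Jeko only and CD9, CCR7 and S1PR1 are low in the Rec-1-labelled libraries only.

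Markers of other cell types moved with the groups. Of 8 T-cell markers, 4 were tested and all 4 were higher in the Rec-1-labelled libraries. CD3D, CD3E and CD7 were under 1 FPKM in both Jeko libraries and reached the filter only through the Rec-1-labelled libraries. Their direction was therefore largely set by the filter, and the count tests nothing. CD3D was at 0.438 and 0.173 against 66.3 and 95.3 FPKM, CD3G at 4.96 and 3.32 against 30.5 and 18.7 FPKM, CD3E at 0.0338 and 0.214 against 5.19 and 5.80 FPKM, and CD7 at 0.0821 and 0.682 against 2.79 and 1.77 FPKM. The summed level of the 8 markers was 5.77 and 4.74 FPKM in Jeko and 105 and 122 FPKM in the Rec-1-labelled libraries. TRAT1 was at 0 in all 4 libraries, CD2 did not exceed 0.0288 FPKM and CD8A was at 0 in both Rec-1-labelled libraries.

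The NK-cell list gave 2 genes above the filter, PRF1 (perforin), at 2.15 and 0.502 against 42.1 and 40.8 FPKM, and NKG7, at 1.99 and 0.789 against 6.44 and 6.97 FPKM. KLRF1, GNLY and NCR1 of that list were at 0 throughout. NCR3 was listed at 0 too, but it lies in the HLA region, where most genes were listed at 0 and a 0 cannot be read as absence. CD33 alone of the myeloid list was tested, at 0.0490 and 0 against 10.7 and 14.4 FPKM, with MPO and ELANE at 0. CD33 too reached the filter only through the Rec-1-labelled libraries. The summed level of the 8 NK-cell markers ran from 1.36 to 4.22 FPKM in Jeko and from 48.0 to 48.8 FPKM in the Rec-1-labelled libraries, and that of the 8 myeloid markers from 0.573 to 0.664 FPKM and from 11.9 to 17.1 FPKM. No erythroid, epithelial or stromal marker was tested. Over all lists of other cell types, the plasma-cell list included, 15 genes were tested, 7 were higher and 4 lower. That is a share of 73.3% beside 28.5% of all genes, which describes the lists and tests nothing. Higher and lower counts were 5 and 3 without Jeko sgRNA 1, 4 and 2 without Jeko sgRNA 2, 3 and 0 without Rec-1-labelled sgRNA 1, and 3 and 1 without Rec-1-labelled sgRNA 2. CD3D, CD3E and CD33 passed in all 4 of those fits, and the part of other cells in the differences was not tested.

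Cell-cycle regulators leaned the other way. Of 83 listed genes, 80 were tested, 6 were higher and 25 lower in the Rec-1-labelled libraries, and 49 did not pass. The share that passed was 38.8%, beside 28.5% of all genes, and the median difference was -0.54. Leaving out a library reduced this to 2 higher and 3 lower without Jeko sgRNA 1, 4 and 8 without Jeko sgRNA 2, 3 and 2 without Rec-1-labelled sgRNA 1, and 3 and 5 without Rec-1-labelled sgRNA 2, so that most of these calls need all 4 libraries. CCND1, CCND3 and CDKN1B were the list members that passed in all 4 of those fits.

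The D-type cyclins differed in opposite directions. CCND3 (chr6:41902672-42018095, GRCh37, minus strand), the cyclin D3 gene, was at 12.8 and 10.5 FPKM in Jeko and 70.6 and 80.2 FPKM in the Rec-1-labelled libraries, higher by 2.60 (SE 0.22, adjusted p = 0.00201). CCND2 did not exceed 0.0111 FPKM in any of the 4 libraries. In FPKM, which are scaled by transcript length, CCND1 was the highest of the 3 in both Jeko libraries and CCND3 the highest in both Rec-1-labelled libraries.

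The partner kinases divided likewise. CDK4 was at 230 and 221 FPKM in Jeko and 82.9 and 108 FPKM in the Rec-1-labelled libraries, a difference of -1.24 (SE 0.23, adjusted p = 0.0192). CDK6 was at 1.29 and 0.0922 against 10.7 and 10.1 FPKM, higher by 2.85 (SE 0.38, adjusted p = 0.00769). CDK4 remained the more abundant RNA of the 2 kinases in all 4 libraries.

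Among the CDK inhibitors, CDKN2A (chr9:21967751-21995300, GRCh37, minus strand), which encodes p16 and ARF, was listed at 0 and at 0.0370 FPKM in Jeko and at 73.7 and 27.2 FPKM in the Rec-1-labelled libraries. It was higher by 5.49 (SE 0.48, adjusted p = 0.00235). CDKN1B, which encodes p27, was at 71.6 and 101 against 8.18 and 9.05 FPKM, a difference of -3.16 (SE 0.25, adjusted p = 0.00179). CDKN1A, which encodes the p53 target p21, was at 186 and 202 against 36.7 and 85.2 FPKM, a difference of -1.77 (SE 0.43, adjusted p = 0.0389). The 2 groups did not overlap for these 3 genes, as was so at 70.5% of all genes.

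CDKN2C (p18) was at 24.5 and 17.2 against 42.4 and 19.7 FPKM, CDKN2D (p19) at 3.81 and 7.19 against 11.5 and 14.2 FPKM, and CDKN1C (p57) at 16.8 and 28.3 against 15.5 and 11 FPKM. None of these 3 passed. CDKN2B, the neighbour of CDKN2A, was under the filter, listed at 0 in both Jeko libraries and at 0.850 and 1.12 FPKM in the Rec-1-labelled libraries.

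Downstream of RB, the RB and E2F, S-phase and mitotic genes that passed were lower, while those that did not pass had differences of both signs. Of 13 RB and E2F family genes tested, 8 were lower and none was higher, with a median of -0.82. The share that passed was 61.5%, beside 28.5% of all genes. E2F7, an inhibitory E2F, was at 7.64 and 4.80 FPKM in Jeko and 0.717 and 2.02 FPKM in the Rec-1-labelled libraries, and RBL1, the RB relative p107, at 11.3 and 11 against 2.52 and 3.54 FPKM. The activators E2F1, E2F2 and E2F3 had differences of -1.15 (SE 0.24), -1.39 (SE 0.22) and -1.30 (SE 0.19), and that of the repressor E2F6 was -1.44 (SE 0.19), with adjusted p between 0.00743 and 0.0259. E2F1 itself went from 47.5 and 40.2 FPKM to 16.6 and 22 FPKM.

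Of 19 S-phase genes tested, 8 were lower and none was higher, with a median of -1.03. The share that passed was 42.1%, beside 28.5% of all genes. RRM2, a subunit of ribonucleotide reductase, was at 82.6 and 55.1 FPKM in Jeko and 17.7 and 15.1 FPKM in the Rec-1-labelled libraries, a difference of -1.98 (SE 0.27, adjusted p = 0.0085). The replicative helicase subunits MCM3 (202 and 167 against 35.2 and 66.8 FPKM) and MCM7 (441 and 282 against 115 and 88.1 FPKM) were lower, as were MCM4, MCM5 and GINS2, whose differences lay between -1.48 and -1.30. Of the mitotic genes, 3 of 20 were lower and 17 did not pass.

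The 3 mitotic genes were BUB1, MYBL2 and MKI67. BUB1, a spindle checkpoint kinase, was at 263 and 161 FPKM in Jeko and 38.8 and 42.2 FPKM in the Rec-1-labelled libraries, a difference of -2.32 (SE 0.30, adjusted p = 0.00708). MYBL2, a factor of the late cell cycle, was at 153 and 122 against 42.8 and 48.1 FPKM, and the proliferation antigen gene MKI67 at 24.8 and 20.5 against 11.7 and 9.75 FPKM. Whether the share that passed differs between S-phase and mitotic genes was not tested.

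Among 18 p53 and checkpoint genes, 3 were higher and 2 lower, a share of 27.8%, near the 28.5% of all genes. ATM, the kinase that senses DNA breaks, was at 1.91 and 1.83 FPKM in Jeko and 7.19 and 7.02 FPKM in the Rec-1-labelled libraries, higher by 1.5 (SE 0.17, adjusted p = 0.00467). ATR, the kinase of stalled replication forks, was at 5.55 and 4.71 against 2.11 and 2.56 FPKM. GADD45A, a p53 target of growth arrest, was at 2.72 and 4.74 against 19.3 and 16.0 FPKM, TP53INP1 at 8.49 and 9.58 against 19.8 and 18.4 FPKM, and the death effector BAX at 165 and 91.6 against 44 and 37.4 FPKM. The p53 targets among them therefore did not share a direction.

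**Figure D3:**
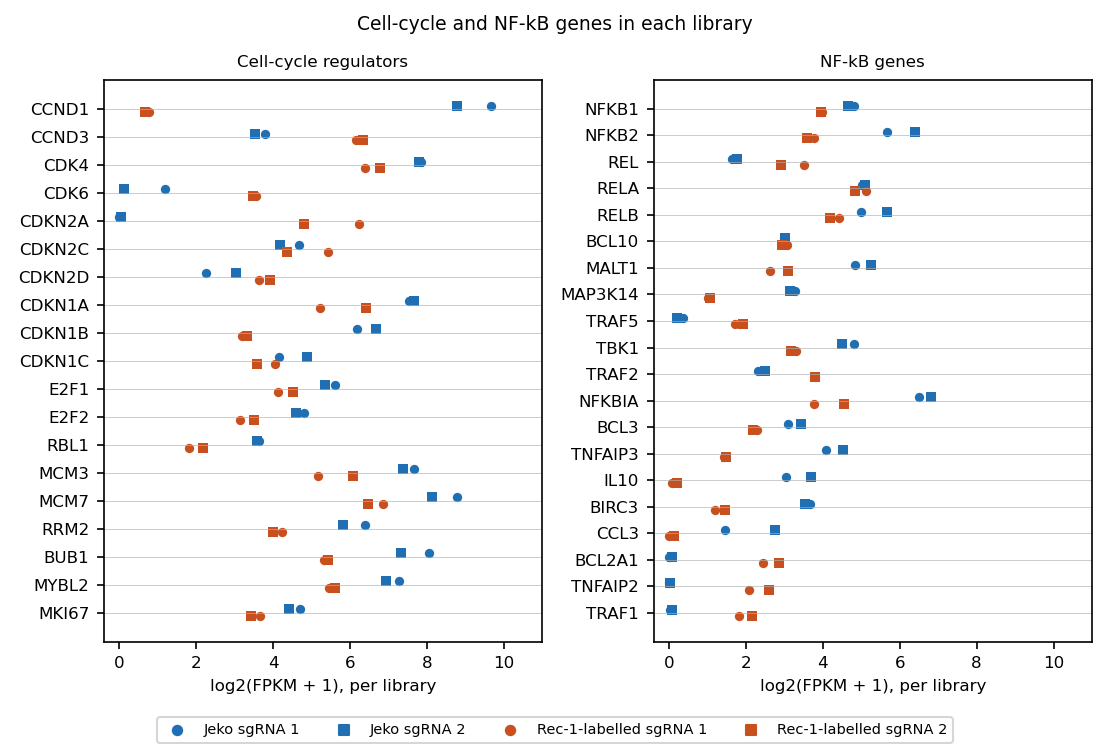
log2(FPKM + 1) of cell-cycle regulators (left) and NF-κB genes (right) in each library, with blue for Jeko sgRNA, orange for Rec-1-labelled sgRNA, circles for library 1 and squares for library 2. CCND1 and CDKN1B are low and CCND3, CDK6 and CDKN2A high in the Rec-1-labelled libraries, and NFKB2, NFKBIA and TNFAIP3 are low there while BCL2A1, TNFAIP2 and TRAF1 are near 0 in Jeko only.

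NF-κB genes were compared by their place in the pathway. Of 67 listed genes, 55 were tested, 9 were higher and 16 lower in the Rec-1-labelled libraries, 30 did not pass and 12 were under the filter. The share that passed was 45.5%, beside 28.5% of all genes, with a median difference of -0.28. Higher and lower counts were 5 and 7 without Jeko sgRNA 1 and 5 and 8 without Jeko sgRNA 2, but 5 and 3 without Rec-1-labelled sgRNA 1 and 7 and 4 without Rec-1-labelled sgRNA 2. The balance of the counts thus depended on both Rec-1-labelled libraries. Over all genes, too, the calls shifted to the higher side when 1 of these libraries was left out, so the shift was not particular to NF-κB genes.

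TNFAIP3, NFKBIA, NFKB2 and BIRC3 are known targets of NF-κB that also act on it, and REL encodes one of its subunits. The 250 bases before the transcription start of these 5 genes are printed from RefSeq (GRCh38.p14, strand of the gene), since each holds the 10-base NF-κB consensus on at least 1 strand. Capitals mark the matches. The windows are chr6:137867009-137867258 (plus) for TNFAIP3, chr14:35404750-35404999 (minus) for NFKBIA, chr10:102394328-102394577 (plus) for NFKB2, chr11:102317234-102317483 (plus) for BIRC3 and chr2:60881324-60881573 (plus) for REL.
TNFAIP3: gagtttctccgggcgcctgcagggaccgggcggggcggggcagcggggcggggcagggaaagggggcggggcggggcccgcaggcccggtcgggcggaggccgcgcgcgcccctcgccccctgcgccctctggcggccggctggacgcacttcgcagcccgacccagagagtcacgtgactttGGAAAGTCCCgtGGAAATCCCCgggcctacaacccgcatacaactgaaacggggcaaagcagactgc
NFKBIA: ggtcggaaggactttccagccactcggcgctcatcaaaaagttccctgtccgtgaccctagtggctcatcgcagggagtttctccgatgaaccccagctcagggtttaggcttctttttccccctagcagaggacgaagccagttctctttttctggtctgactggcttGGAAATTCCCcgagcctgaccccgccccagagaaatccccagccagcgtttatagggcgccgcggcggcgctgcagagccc
NFKB2: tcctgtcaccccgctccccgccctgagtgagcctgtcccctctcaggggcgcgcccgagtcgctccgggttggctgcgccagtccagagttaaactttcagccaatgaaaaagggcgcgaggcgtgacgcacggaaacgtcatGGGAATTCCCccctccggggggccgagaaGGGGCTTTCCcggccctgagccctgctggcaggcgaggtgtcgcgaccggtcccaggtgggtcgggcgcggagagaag
BIRC3: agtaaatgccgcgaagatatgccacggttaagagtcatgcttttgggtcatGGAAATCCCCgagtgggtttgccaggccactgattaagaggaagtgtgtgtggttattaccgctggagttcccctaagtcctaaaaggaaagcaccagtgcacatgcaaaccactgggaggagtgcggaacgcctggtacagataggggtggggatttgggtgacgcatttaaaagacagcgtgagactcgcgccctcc
REL: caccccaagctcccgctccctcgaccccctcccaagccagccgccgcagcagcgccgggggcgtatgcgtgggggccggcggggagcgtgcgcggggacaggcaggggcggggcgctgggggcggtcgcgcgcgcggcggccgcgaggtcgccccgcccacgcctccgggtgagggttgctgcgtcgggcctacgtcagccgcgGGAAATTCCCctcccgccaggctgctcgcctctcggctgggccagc

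The match nearest to the start ended 45 bases before it in TNFAIP3, 71 in NFKBIA, 68 in NFKB2, 189 in BIRC3 and 36 in REL. TNFAIP3 and NFKB2 each had matches at 2 positions, and for NFKB2 the window shown is one of 3 in the table. Of all 35116 promoter windows of this length in that table, 2417 (6.88%) held the consensus. Windows were found for 58 of the 67 NF-κB genes. The consensus was present in 6 of 15 genes that were lower (NFKB1, NFKB2, NFKBIA, TNFAIP3, CD83 and BIRC3), in 2 of 8 that were higher (REL and IL2RA), in 9 of 25 that did not pass and in 7 of 10 under the filter. A gene was counted if any of its windows held the consensus, and a match is a description of the sequence alone.

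Among the 5 subunits, the precursor genes were lower. NFKB2, the p100 gene of the non-canonical arm, was at 50.1 and 82.7 FPKM in Jeko and 12.7 and 10.9 FPKM in the Rec-1-labelled libraries, a difference of -2.35 (SE 0.30, adjusted p = 0.00686). NFKB1, the p105 gene, was at 27.2 and 24.3 against 14.7 and 14.6 FPKM, a difference of -0.78 (SE 0.19, adjusted p = 0.0399). REL, the c-Rel gene, was at 2.10 and 2.40 against 10.5 and 6.57 FPKM, higher by 1.52 (SE 0.26, adjusted p = 0.0153). RELA, at 31.3 and 32.9 against 34.0 and 27.7 FPKM, and RELB, at 31.1 and 49.7 against 20.4 and 17.2 FPKM, did not pass.

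MALT1 was lower, and BCL10, which joins it in a complex, did not pass. MALT1 (chr18:56338697-56421709, GRCh37, plus strand), the paracaspase, was at 27.3 and 37.4 FPKM in Jeko and 5.12 and 7.52 FPKM in the Rec-1-labelled libraries, a difference of -2.19 (SE 0.27, adjusted p = 0.0064). BCL10, the adaptor, was at 6.91 and 7.06 against 7.31 and 6.61 FPKM, with a 95% interval of its difference from -0.46 to 0.45.

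Upstream, MAP3K14, the kinase NIK of the non-canonical arm, was at 8.66 and 7.87 FPKM in Jeko and 1.02 and 1.08 FPKM in the Rec-1-labelled libraries, a difference of -2.18 (SE 0.17, adjusted p = 0.00179). TBK1, an IKK-related kinase, was at 27.1 and 21.6 against 8.87 and 8.02 FPKM. The adaptors TRAF2 (4 and 4.68 against 12.8 and 12.9 FPKM) and TRAF5 (0.282 and 0.158 against 2.31 and 2.80 FPKM) were higher. Of all 18 genes of this level, 4 were higher, 4 lower and 10 did not pass. The share that passed was 44.4%, beside 28.5% of all genes.

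The inhibitors had 3 lower and none higher of 11 tested, a share of 27.3%, near the 28.5% of all genes. TNFAIP3, the ubiquitin editor A20, was at 15.9 and 22 FPKM in Jeko and 1.69 and 1.77 FPKM in the Rec-1-labelled libraries, a difference of -2.85 (SE 0.22, adjusted p = 0.00176). NFKBIA, the classical inhibitor IκBα, was at 89.0 and 111 against 12.8 and 22.5 FPKM, a difference of -2.48 (SE 0.33, adjusted p = 0.00743), and BCL3, a nuclear IκB protein, at 7.61 and 9.88 against 3.84 and 3.52 FPKM. The other 8 inhibitor genes had differences between -0.70 and 0.75 and did not pass.

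Target genes moved both ways, with 4 higher and 7 lower of 21 tested, a share of 52.4% beside 28.5% of all genes. IL10, an anti-inflammatory cytokine, was at 7.18 and 12.0 FPKM in Jeko and 0.0574 and 0.158 FPKM in the Rec-1-labelled libraries, a difference of -3.22 (SE 0.28, adjusted p = 0.00215). BIRC3, the ubiquitin ligase cIAP2, was at 11.7 and 10.6 against 1.29 and 1.75 FPKM, a difference of -2.28 (SE 0.19, adjusted p = 0.00207), and the chemokine CCL3 at 1.72 and 5.74 against 0 and 0.0950 FPKM.

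In the other direction, the survival gene BCL2A1 was at 0 and 0.0513 FPKM in Jeko and 4.42 and 6.32 FPKM in the Rec-1-labelled libraries, higher by 2.62 (SE 0.22, adjusted p = 0.00202). TNFAIP2, a TNF-induced gene, was at 0 and 0.0177 against 3.21 and 5.04 FPKM and the adaptor TRAF1 at 0.0126 and 0.0495 against 2.51 and 3.50 FPKM. These 3 targets were near 0 in both Jeko libraries and reached the filter only through the Rec-1-labelled libraries. Their direction was therefore largely set by the filter, and so, on the low side, was that of IL10 and CCL3. The 3 targets passed in each fit that left out a library, as did TNFAIP3, BIRC3 and MAP3K14 on the low side. Calls of the list thus lay on both sides, and their counts test nothing.

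Antigen presentation genes were limited by the table itself. Between the outermost HLA genes listed on chromosome 6 (29690552 to 33057473, GRCh37), 115 of 130 protein-coding rows, or 88.5%, were listed at 0 in all 4 libraries, against 19.6% of the other autosomal protein-coding rows. Those rows include HLA-DPA1, HLA-DMA, HLA-E, TAP1, TAP2, PSMB8, PSMB9, TNF, LTA and LTB. Since genes that most B cells use were among them, these zeros cannot be read as absence. HLA genes are also near-identical in sequence, so their values are uncertain wherever reads could be split among them.

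Of 49 listed genes, 31 were tested, 3 were higher, 9 lower and 19 did not pass. The share that passed was 38.7%, beside 28.5% of all genes, and the median difference was -0.41. Higher and lower counts were 3 and 2 without Jeko sgRNA 1, 3 and 3 without Jeko sgRNA 2, 3 and 2 without Rec-1-labelled sgRNA 1, and 3 and 4 without Rec-1-labelled sgRNA 2.

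In class II, HLA-DRB5 was at 14.5 and 13.7 FPKM in Jeko and 107 and 76.0 FPKM in the Rec-1-labelled libraries, higher by 2.60 (SE 0.25, adjusted p = 0.00299). HLA-DQA1 was at 70.0 and 76.8 against 32.5 and 36.0 FPKM, a difference of -1.08 (SE 0.20, adjusted p = 0.0201). HLA-DRB1 (49.7 and 47.8 against 59.0 and 56.8 FPKM), HLA-DQB1 (33.4 and 43.6 against 42.4 and 35.9 FPKM) and the invariant chain CD74 (3022 and 2015 against 1533 and 892 FPKM) did not pass.

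Of 11 class II regulators and proteases tested, 1 was higher and 2 were lower, a share of 27.3%, near the 28.5% of all genes. CIITA, the class II master transactivator, was at 17.8 and 13 FPKM in Jeko and 6.86 and 5.54 FPKM in the Rec-1-labelled libraries, a difference of -1.18 (SE 0.24, adjusted p = 0.0247). RFX5, a promoter-binding subunit, was at 68.4 and 75.1 against 17.9 and 25.9 FPKM, a difference of -1.69 (SE 0.25, adjusted p = 0.0109). The lysosomal protease CTSH was higher, at 8.68 and 8.07 against 45.6 and 36.4 FPKM, and the other 8 genes tested at this step did not pass.

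In class I, HLA-F was at 1.89 and 2.27 FPKM in Jeko and listed at 0 in both Rec-1-labelled libraries. HLA-B stood at 8.23 and 10.5 against 7.29 and 6.17 FPKM. B2M, the invariant light chain of class I, lies outside the HLA region and was at 3136 and 2790 against 2769 and 2806 FPKM. Neither HLA-B nor B2M passed, and the values of B2M overlapped.

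Genes of peptide supply and loading were lower where they passed, 5 of 11 tested, or 45.5% beside 28.5% of all genes. TAPBPL, a peptide editor of class I, was at 29.3 and 35.2 FPKM in Jeko and 3.21 and 4.39 FPKM in the Rec-1-labelled libraries, a difference of -2.80 (SE 0.23, adjusted p = 0.0019). ERAP1, the trimming peptidase of the endoplasmic reticulum, was at 37.8 and 60.1 against 9.80 and 13.7 FPKM. The proteasome activator subunits PSME1 (391 and 341 against 168 and 213 FPKM) and PSME2 (319 and 291 against 80.3 and 149 FPKM) and the class I transactivator NLRC5 (8.58 and 5.45 against 2.48 and 2.36 FPKM) completed the group. HLA-DRB5, HLA-F, CTSH and TAPBPL passed in each fit that left out a library.

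Signalling genes that passed lay on both sides. Of 133 listed genes, 109 were tested, 23 were higher, 24 lower and 62 did not pass, with a share passing of 43.1% beside 28.5% of all genes and a median of -0.18. Higher and lower counts were 5 and 10 without Jeko sgRNA 1, 7 and 10 without Jeko sgRNA 2, 5 and 8 without Rec-1-labelled sgRNA 1, and 7 and 9 without Rec-1-labelled sgRNA 2. SPRY1, SPRY2, FOS, SOCS2, SOCS3, IL2RB, NOTCH2 and JAG2 passed in all 4 of those fits.

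**Figure D4:**
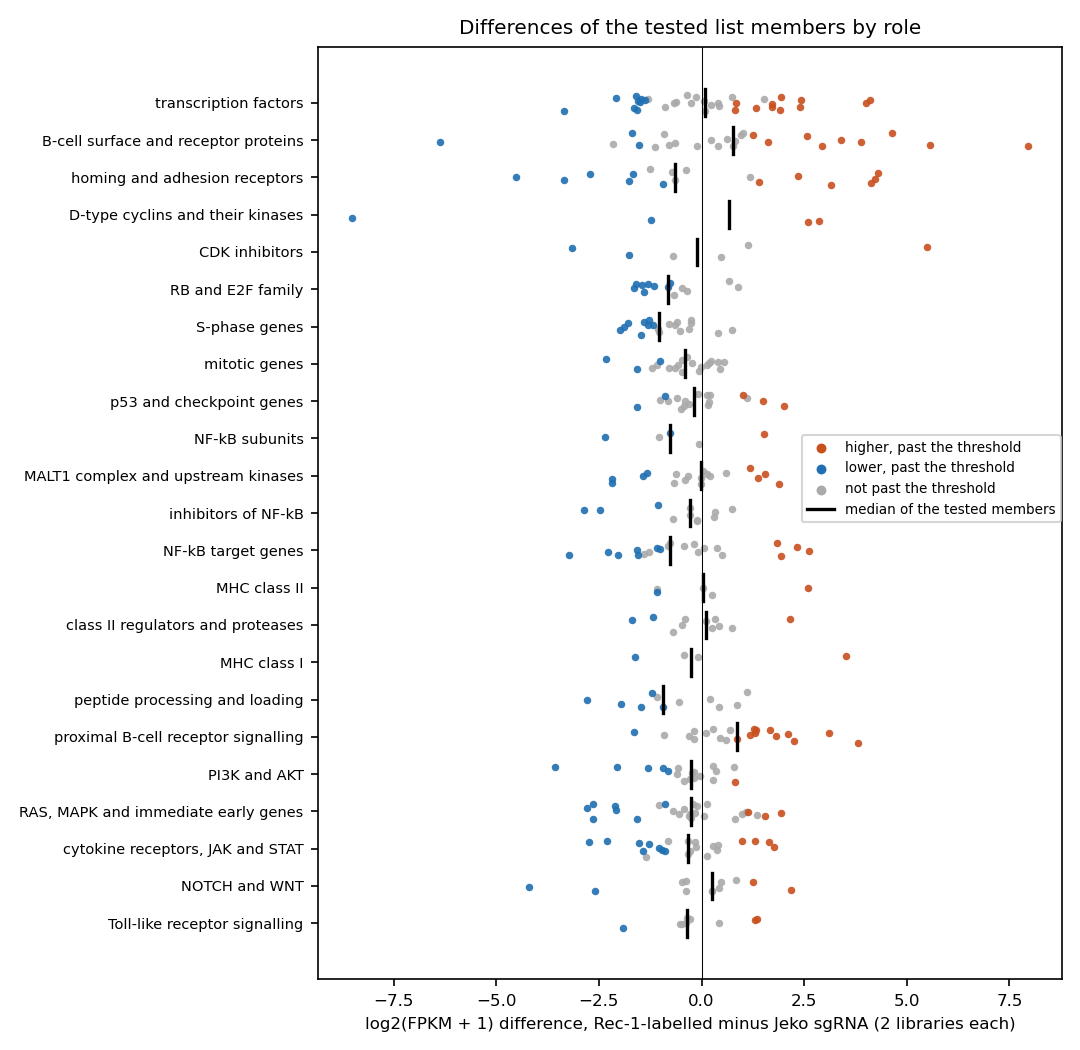
log2(FPKM + 1) difference, Rec-1-labelled minus Jeko sgRNA, of each tested list member, by role; orange and blue points passed the test, grey points did not, and black bars are medians. The RB and E2F, S-phase and mitotic rows hold no higher gene. The row of proximal B-cell receptor signalling holds 11 higher genes and 1 lower gene, a share of 57.1% beside 28.5% of all genes.

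Proximal B-cell receptor signalling had 11 higher genes and 1 lower gene of 21 tested, with a median of 0.87. The share that passed was 57.1%, beside 28.5% of all genes. CD180, a Toll-like receptor homologue that tunes B-cell activation, was at 5.98 and 2.00 FPKM in Jeko and 65.4 and 60.9 FPKM in the Rec-1-labelled libraries, higher by 3.81 (SE 0.43, adjusted p = 0.00493). The SRC-family kinases FYN and LCK were at 1.16 and 6.12 against 26.3 and 40.5 FPKM and at 6.76 and 8.92 against 34.8 and 38.9 FPKM. Both kinases also act in T cells, and the summed level of the 8 T-cell markers moved with them, from 5.77 and 4.74 FPKM to 105 and 122 FPKM, with TRAT1 at 0 and CD2 at most at 0.0288 FPKM. The part of that shift in this group was not tested. PRKCB, a protein kinase C of the B-cell receptor path, was at 3.04 and 1.93 against 13.5 and 17.6 FPKM, higher by 2.26 (SE 0.25, adjusted p = 0.00469).

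The ubiquitin ligase CBL (2.33 and 2.63 against 11 and 11.6 FPKM) and the inhibitory adaptor DOK3 (53.3 and 41.4 against 189 and 123 FPKM) were higher too, so that the higher genes hold both activators and inhibitors of the receptor. BANK1, a B-cell scaffold, was the lower gene, at 6.48 and 13.4 against 1.49 and 3.41 FPKM. None of the 12 genes passed in all 4 fits that left out a library.

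In the PI3K pathway, 1 gene was higher and 5 were lower of 18 tested, a share of 33.3%, near the 28.5% of all genes. PIK3CD (chr1:9689947-9789172, GRCh37, plus strand), the leukocyte catalytic subunit p110 delta, was at 57.2 and 46.5 FPKM in Jeko and 12.0 and 11.1 FPKM in the Rec-1-labelled libraries, a difference of -2.07 (SE 0.21, adjusted p = 0.00361). PIK3CA stood at 11 and 14.2 against 14.9 and 16.0 FPKM, PIK3CB at 5.63 and 4.74 against 3.83 and 4.35 FPKM, and PIK3CG at 7.97 and 5.52 against 14.5 and 10.2 FPKM, and none of these other class I catalytic genes passed. PIK3CD was the most abundant of the 4 per length in both Jeko libraries, but not in the Rec-1-labelled libraries. There PIK3CA stood above it in FPKM in both, and PIK3CG in Rec-1-labelled sgRNA 1 only.

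The regulatory subunits PIK3R3 (4.48 and 2.42 FPKM in Jeko against 0.518 and 1.04 FPKM) and PIK3R2 (13.1 and 12.7 against 7.57 and 6.37 FPKM) and the mTOR brake TSC2 (10.4 and 10.9 against 5.95 and 4.39 FPKM) were lower. The class II kinase gene PIK3C2B was higher, at 4.47 and 3.67 against 9 and 6.90 FPKM.

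Of 26 RAS, MAPK and immediate early genes, 3 were higher and 7 lower, a share of 38.5% beside 28.5% of all genes. FOS, an AP-1 subunit, was at 17.3 and 15.4 FPKM in Jeko and 1.47 and 1.55 FPKM in the Rec-1-labelled libraries, a difference of -2.79 (SE 0.18, adjusted p = 0.00102). The feedback inhibitors of receptor tyrosine kinase signalling SPRY1 (4.69 and 5.88 FPKM against 0 in both) and SPRY2 (5.76 and 6.60 against 0.110 and 0.207 FPKM) were lower. EGR1 was at 33.7 and 32.0 against 7.96 and 5.95 FPKM and IER5 at 55.0 and 44.6 against 10.4 and 11.6 FPKM, so that these 2 immediate early genes and FOS were lower. NR4A1 and FOSB, of the same class, were higher, FOSB at 0.269 and 0.304 against 1.54 and 2.16 FPKM, by 1.14 (SE 0.20, adjusted p = 0.0161). FOSB was named after its values were seen. MYC, also named after its values were seen, was at 586 and 416 against 196 and 139 FPKM, a difference of -1.58 (SE 0.29, adjusted p = 0.0194).

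Cytokine signalling had 4 higher and 8 lower genes of 23, a share of 52.2% beside 28.5% of all genes. The feedback inhibitors SOCS2 (7.26 and 6.17 against 0.0908 and 0.217 FPKM) and SOCS3 (4.20 and 3.72 against 0 and 0.0222 FPKM) had differences of -2.74 (SE 0.19, adjusted p = 0.00123) and -2.29 (SE 0.17, adjusted p = 0.00164). The kinase gene PIM1, a STAT target, was at 21.3 and 30.9 against 9.04 and 7.68 FPKM, and the gp130 receptor gene IL6ST at 3.61 and 5.80 against 0.810 and 1.37 FPKM. STAT5A was higher, at 1.70 and 2.15 against 8.43 and 9.56 FPKM, as was the interleukin 2 receptor beta chain gene IL2RB, at 0 and 0.00913 against 2.13 and 2.11 FPKM.

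NOTCH2, the NOTCH receptor of marginal-zone B cells, was at 17.6 and 17.5 FPKM in Jeko and 0.0117 and 0.0150 FPKM in the Rec-1-labelled libraries, a difference of -4.20 (SE 0.17, adjusted p = 0.000474). The WNT ligand gene WNT16 was also lower, at 8.94 and 2.78 against 0 and 0.0211 FPKM. The NOTCH ligand gene JAG2 (0.110 and 0.330 against 4.77 and 4.26 FPKM) and the NOTCH-induced regulator NRARP (3.24 and 2.33 against 7.63 and 8.45 FPKM) were higher. The other 8 of the 12 NOTCH and WNT genes tested did not pass, so that the share passing, 33.3%, was near the 28.5% of all genes.

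Of 9 Toll-like receptor genes tested, UNC93B1, which carries receptors to endosomes, was higher, at 2.22 and 2.33 against 7.64 and 7.15 FPKM, and so was LY96, which encodes MD-2, at 4.84 and 7.66 against 12.6 and 21.6 FPKM. LY86, which encodes the CD180 partner MD-1, was lower, at 34.9 and 58.4 against 8.94 and 14.3 FPKM, a difference of -1.91 (SE 0.36, adjusted p = 0.0201). CD180 and its partner thus had opposite directions. The share of these genes that passed, 33.3%, was near the 28.5% of all genes.

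Position along the genome, which the choice of genes did not use, was described last. Over the 10024 protein-coding genes 14.1% were higher and 14.2% lower, with a median of -0.05. The median was -0.51 on chromosome 12, where 29.0% of 562 genes were lower, -0.48 on chromosome 7, where 27.6% of 486 genes were lower, and -0.48 on chromosome 18, where 34.3% of 137 genes were lower. Chromosome 11 had the highest median, 0.19, with 22.3% of 596 genes higher. Named genes of these chromosomes went both ways. On chromosome 12, CDK4 and CD9 were lower, whereas CD27 and NR4A1 were higher. On chromosome 7, MCM7 was lower and CDK6 higher. MALT1, on chromosome 18, was lower, and so was CCND1, on chromosome 11. Chromosome copy number was not measured, and no test was made of the differences between chromosomes.

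**Figure D5:**
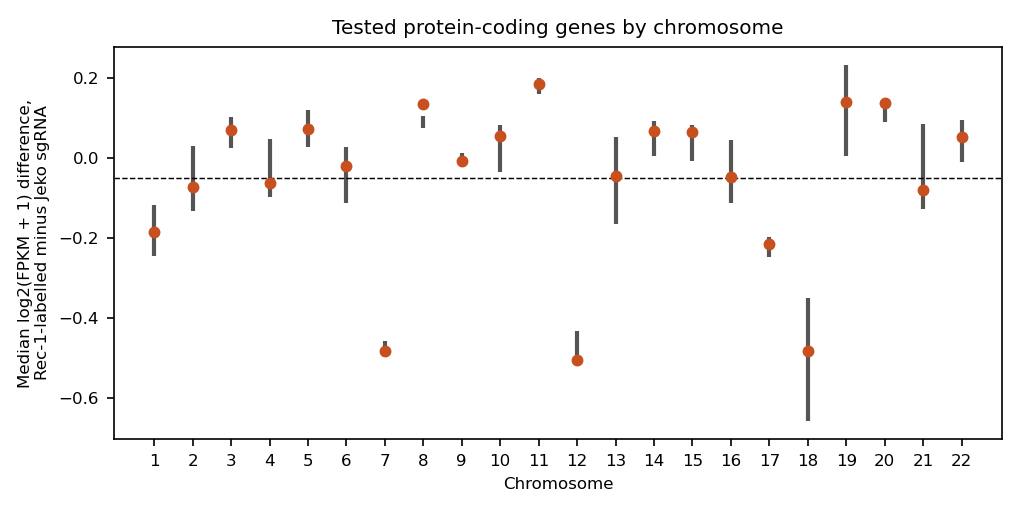
Median log2(FPKM + 1) difference, Rec-1-labelled minus Jeko sgRNA, of the tested protein-coding genes of each autosome; points use the mean of each group, grey bars span the medians of single library pairs and need not enclose the point, and the dashed line is the median of all 10024 genes, -0.05. Chromosomes 7, 12 and 18 lie lowest and chromosome 11 highest.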

How the data were processed

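The authors deposited a single table of FPKM values with 6 library columns, per the file headers. TopHat and hg19 are named in the submitters' processing notes; the program that computed FPKM, the annotation and the strand setting are not given in the sources used here. An Illumina TruSeq kit was used on total RNA, per the labels' protocols. The guide sequences were not analysed here. FPKM are not counts and depth is unknown, so no count test and no counting interval was used.

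The members and gene lists were chosen with earlier results of these data known. Rows were matched to GENCODE 44 (lifted to GRCh37), and 351 of the 11369 tested rows had no match. Values were fitted as log2(FPKM + 1) with limma 3.58.1 in R 4.3.3 (lmFit, eBayes with a mean-variance trend, no covariate) over the 11369 rows, 340 of them on the X or Y chromosome and not reported. The fit was tested on simulated data with Python 3.11.15. Genes named are the markers CCND1, CCND3, CDKN2A, SOX11, MALT1 and PIK3CD, NR4A1, the B-cell and other cell type markers, up to 6 passing members of each role by size of difference, small families whole, and the 10 highest and 10 lowest protein-coding genes whose groups did not overlap. Alternatives numbered 14, and 4 of them left out a library. Results for some genes of the lists are not reported here.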

Additional observations from a re-analysis of the deposited data

How the results depend on the processing

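The libraries labelled Rec-1 sgRNA number 2 and come from different guides, absolute depth is unknown, and no control was replicated, so guide, culture and library preparation cannot be told apart within a group. A minimum mean of 5 FPKM, which tests fewer genes, gave 911 higher and 920 lower genes, and leaving out 1 library gave 531 to 672 higher and 306 to 597 lower genes; the other settings kept both counts within 1.5 times. Guide numbers did not pair the libraries (correlation of same-numbered deviations 0.0930), and taking the guide number as replicate block gave 1729 higher and 1646 lower genes. Rescaling to an equal protein-coding sum gave 1748 higher and 1257 lower genes and a median difference of 0.07. Of 137 named genes that passed, 53 passed in each fit without a library, and 20 lost the call in at least 1 of the 10 other settings: ATR, BANK1, CCL3, CD7, CD83, CDKN1A, E2F7, LY96, MCM4, MCM5, MKI67, NFKB1, NLRC5, PIK3C2B, PIK3R2, PIK3R3, PSME1, PSME2, SOX4 and TSC2; the cause was not tested. Of the 3039 genes that passed, 2 changed sign with quantile normalization and 4 with the length adjustment, with or without the replicate block, none of them a named gene. Named genes that did not pass changed sign: with the equal sum RELA (0.047), BCL10 (0.095) and B2M (0.028), with the length adjustment BCL10 (0.0013, the same value with the replicate block), and, over the fits without a library, XBP1 (-0.011 to 1.49), HLA-DQB1 (-0.16 to 0.22), CDKN2C (-0.058 to 1.01), RELA (-0.21 to 0.081) and BCL10 (-0.068 to 0.059).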
